A study of Schizosaccharomyces pombe with 6 samples.

Results

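Pds5 fused to GFP was mapped by chromatin immunoprecipitation (ChIP) on tiling arrays in fission yeast cells that lack the histone methyltransferase gene clr4 and in cells that lack the HP1 gene swi6. These are 2 of the 6 arrays of the series, 1 array for each deletion, chosen by their genotype labels. The groups compared were clr4Δ (labelled clr4D), swi6Δ (labelled swi6D) and wild type, the last with 2 arrays. All carried Pds5-GFP, and all 4 ChIPs used the same GFP antibody. Cells were growing exponentially in rich medium (YEA) at 30 °C. They were moved to 18 °C for 2 h before fixation with 3% paraformaldehyde and the cross-linker DMA. The other 2 arrays map dimethylated histone H3 lysine 9 (H3K9me2), and the wild-type H3K9me2 array is used here only to bound 1 region.

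Heterochromatin in fission yeast is built on the mark that Clr4 places on histone H3. Swi6 binds that mark and recruits cohesin, the ring that holds sister chromatids together, to the repeats that flank centromeres. Pds5 is a subunit that binds the cohesin ring and regulates its loading, release and acetylation. A clr4 deletion removes the mark and with it the binding of Swi6, whereas a swi6 deletion removes a reader of the mark and leaves Clr4 and the second HP1 protein, Chp2, in the cell. The comparison therefore asks what Pds5 remains where the reader is missing and what remains where the writer is missing.

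Each probe was given as a log2 ratio, ChIP signal over that of the whole-cell extract, less the array's median ratio, so that 0 is the typical probe of an array. With 1 array for each deletion there is no replicate error for either mutant and no test was made. Differences are clr4Δ minus swi6Δ, and the gap set beside them is wild-type replicate 1 minus replicate 2. Separate cultures for the wild-type pair are not stated in the labels, so their gap may be technical. Probes lie 300 bp apart on fragments of 500 to 1000 bp, so neighbouring probes share fragments and are not independent. The swi6Δ array shared its slide with wild-type replicate 2, whereas the clr4Δ array was the only array of this series on its slide. Slide and genotype of the clr4Δ array cannot be told apart. Median spot intensity was 1252 in clr4Δ, 1153 in swi6Δ and 1319 and 1181 in wild type in the extract channel, and at least 99.91% of spots were well above background in both channels on all 4 arrays. Across 40120 arm probes the mutants correlated with each other at r = 0.93 and the wild-type arrays at r = 0.95, values that describe the arrays, since the probes of an array share its labelling and base composition.

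The extract channel matched the labels. In clr4Δ, 5 probes within the clr4 locus had an extract signal of -6.43 relative to the wild-type mean on the log2 scale, against 0.13 for the same probes in swi6Δ. In swi6Δ, 3 probes within the swi6 locus lay at -6.38 relative to the wild-type mean, against 0.29 for the same probes in clr4Δ. The clr4 gene as placed on the array has 15 probes, of which those 5 form the stretch counted as lost. Ratios over the deleted probes have almost no extract DNA behind them. The pds5 gene, which carries the GFP tag, had a Pds5-GFP ratio of 0.17 in clr4Δ and 0.10 in swi6Δ, against 0.21 and 0.11 in wild type.

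**Figure D1:**
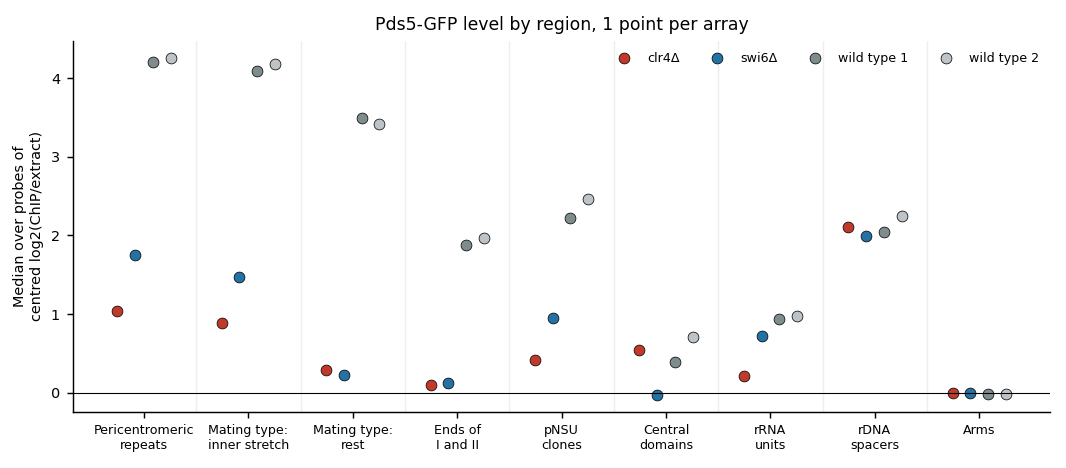
Median centred log2(ChIP/extract) of Pds5-GFP over the probes of each region (y axis), with 1 point for each array: clr4Δ, swi6Δ and the 2 wild-type arrays. Over the pericentromeric repeats clr4Δ lies at 1.05 and swi6Δ at 1.76, over the central domains the order of the mutants is the opposite, and over the arms all 4 arrays lie at 0.

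The pericentromeric repeats had more Pds5-GFP in swi6Δ than in clr4Δ, and both mutants had far less than wild type. These outer repeats are transcribed, feed the RNA interference pathway and hold most of the cohesin at centromeres. Over 188 repeat probes the median ratio was 1.05 in clr4Δ and 1.76 in swi6Δ, against 4.20 and 4.26 in wild type. The median probe-by-probe difference was -0.79, with an interquartile range over probes from -0.94 to -0.61. The wild-type gap over the same probes was -0.06, with an interquartile range from -0.16 to 0.02. The swi6Δ value was the higher in 185 of 188 probes. Relative to the wild-type mean, clr4Δ lay at -3.21 and swi6Δ at -2.46. The extract signal there, less each array's median, was 1.76 in clr4Δ and 1.74 in swi6Δ, against 0.78 and 0.99 in wild type. A brighter extract lowers the ratio, and its part in the distance from wild type was not tested.

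The same order held at each centromere. At centromere 1 the median of 62 repeat probes was 0.97 in clr4Δ and 1.68 in swi6Δ. At centromere 2, with 43 probes, it was 0.89 in clr4Δ and 1.69 in swi6Δ, and at centromere 3, with 83 probes, 1.09 in clr4Δ and 1.85 in swi6Δ. The differences of -0.79, -0.88 and -0.77 were close to each other, and the wild-type gaps ran from -0.10 to -0.04. On single sides the difference lay between -0.89, to the right of centromere 2, and -0.72, to the right of centromere 1 and to the left of centromere 3.

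Of the 188 repeat probes, 181 have names that end in a letter, f or m, which no label or header explains. A probe of repeated DNA cannot be assigned to a single copy. The difference was -0.83 over the 62 probes ending in f and -0.79 over the 119 ending in m. Over the 7 probes with neither letter it was -0.54, with 1.07 in clr4Δ, 1.50 in swi6Δ and 3.24 and 3.27 in wild type.

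Within the repeats clr4Δ fell to low levels at some probes where swi6Δ did not. Across the 180 repeat probes measured on all 4 arrays, which leave out the lowest swi6Δ probe described below, the SD of the level was 0.45 in clr4Δ and 0.35 in swi6Δ, against 0.42 and 0.41 in wild type. The probe left out was at -3.76 in swi6Δ and -0.29 in clr4Δ, and the order of the mutant SDs rests on its absence. In 35 of the 180 probes clr4Δ was below 0.5 while swi6Δ was at 1 or above, and the opposite combination occurred in 0 probes. Both counts follow in part from the lower median of clr4Δ over the repeats. The limits of 0.5 and 1 were set after the profiles were seen.

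These low points of clr4Δ formed 6 runs of 3 or more neighbouring probes. Every probe of a run was chosen with clr4Δ below 0.5 and swi6Δ at 1 or above. The mutant levels given for the runs follow in part from that choice. The longest, 11 probes at tiles 3756600 to 3759600 of the chromosome 1 contig, lay 13.8 kb to the left of the middle of the central domain. Its mean was 0.12 in clr4Δ and 1.53 in swi6Δ, against 4.14 and 4.23 in wild type. To the right of the same centromere, 4 probes at tiles 3781200 to 3782100 averaged -0.09 in clr4Δ and 1.29 in swi6Δ, against 3.92 and 4.13 in wild type. On average clr4Δ was near the level of a typical arm probe in that run, while the choice kept swi6Δ above it. Its single probes ran from -0.38 to 0.24 in clr4Δ and from 1.07 to 1.43 in swi6Δ. To the left of centromere 2, 6 probes at tiles 1614900 to 1617000 averaged 0.30 in clr4Δ and 1.59 in swi6Δ, against 4.16 and 4.18 in wild type. The other 3 runs, of 3 to 4 probes at centromeres 2 and 3, averaged 0.21 to 0.35 in clr4Δ and 1.20 to 1.41 in swi6Δ. In the extract channel the clr4Δ array was 0.18 to 0.68 brighter than the swi6Δ array over the 6 runs.

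**Figure D2:**
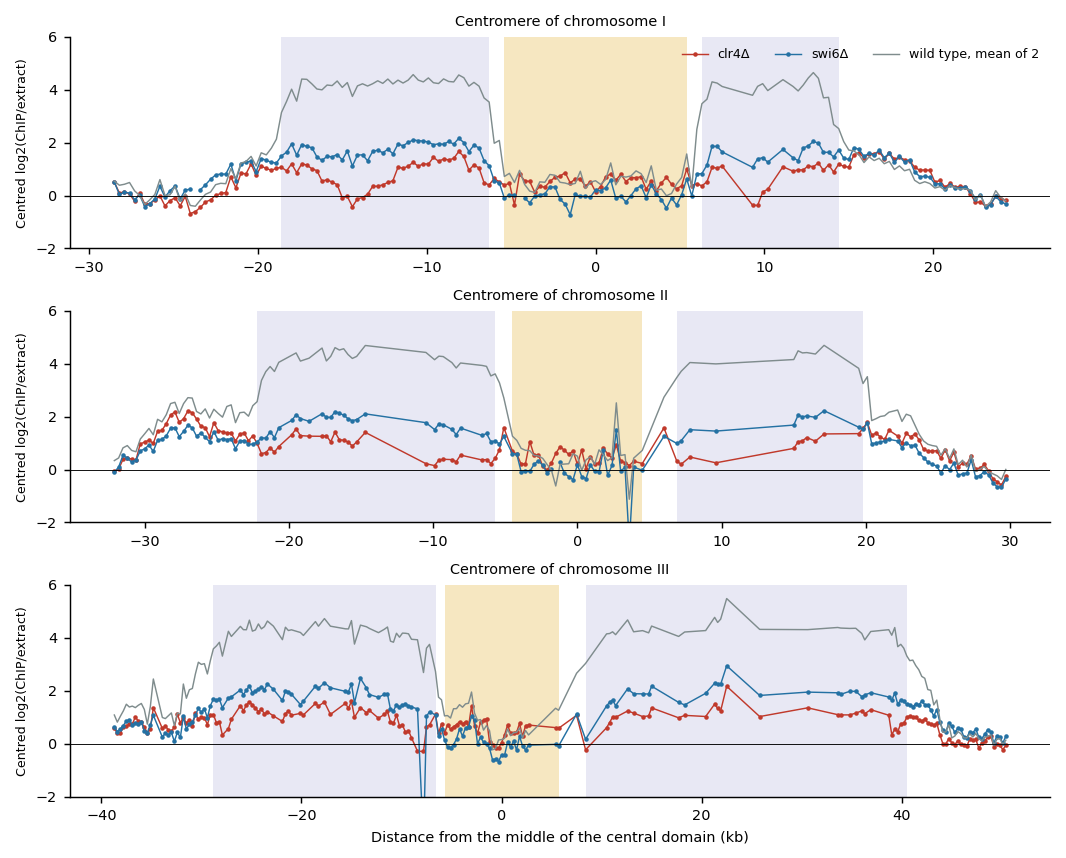
Centred log2(ChIP/extract) of each probe (y axis) against the distance from the middle of the central domain in kb (x axis) at the 3 centromeres, for clr4Δ, swi6Δ and the mean of the wild-type arrays. The outer shading marks the repeats and the inner shading the central domain, and 2 swi6Δ probes fall below the axis. The swi6Δ line runs above the clr4Δ line through the repeats, and clr4Δ alone drops towards 0 in several runs.

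Of the 3 repeat probes in which clr4Δ was higher, 2 lay at the inner edge of the left repeats of centromere 3 and 1 at the outer edge of the right repeats of centromere 2. At tile 1092000 of the chromosome 3 contig the ratio was -0.29 in clr4Δ and -3.76 in swi6Δ, against 2.69 in wild-type replicate 1, and replicate 2 had an outlier flag there. The differences at the other 2 probes were 0.03 and 0.04.

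Beyond the repeats the order of the mutants depended on the flank. To the right of centromere 3 swi6Δ was the higher out to 12 kb. From 1.5 to 3 kb beyond the repeats, 5 probes averaged 0.79 in clr4Δ and 1.31 in swi6Δ, against 2.00 and 1.85 in wild type. From 3 to 4.5 kb the mean was 0.11 in clr4Δ and 0.64 in swi6Δ, against 0.49 and 0.60 in wild type. There swi6Δ lay just above the wild-type arrays and clr4Δ below them.

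The left flank of centromere 1 showed the same order. From 3 to 4.5 kb out, the mean was -0.04 in clr4Δ and 0.68 in swi6Δ, against 0.24 and 0.36 in wild type. From 7.5 to 9 kb out it was -0.13 in clr4Δ and -0.15 in swi6Δ, against 0.00 and 0.07 in wild type, so that the mutants no longer differed by more than the wild-type pair. The flanks were examined after the profiles were seen.

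Both flanks of centromere 2, which carry clusters of tRNA genes, had the opposite order out to 10.5 kb. tRNA genes bound by RNA polymerase III act as heterochromatin boundaries in this yeast. On the left, from 4.5 to 6 kb out, 5 probes averaged 2.04 in clr4Δ and 1.50 in swi6Δ, against 2.39 and 2.56 in wild type. On the right, at the same distance, the mean was 0.58 in clr4Δ and 0.07 in swi6Δ, against 0.62 and 0.80 in wild type. The differences of 0.53 and 0.51 stand beside wild-type gaps of -0.16 and -0.17. These windows had the largest differences of their flanks and hold no tRNA gene, whereas the windows with tRNA genes had differences from 0.19 to 0.41. From 10.5 to 12 kb out the differences were -0.13 on the left and -0.06 on the right. On the right flank of centromere 1 the mutants were alike in level, with 1.56 in clr4Δ and 1.57 in swi6Δ from 1.5 to 3 kb out, against 1.24 and 1.44 in wild type. From 3 to 4.5 kb out on that side both mutants were above wild type, with 1.31 in clr4Δ and 1.25 in swi6Δ, against 0.86 and 0.98 in wild type. On the left flank of centromere 3 the sign changed with distance. Nearest the repeats the mean was 0.94 in clr4Δ and 1.25 in swi6Δ, against 2.95 and 3.00 in wild type, while from 3 to 4.5 kb out it was 0.70 in clr4Δ and 0.30 in swi6Δ, against 0.88 and 1.19 in wild type.

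The central domains showed the reverse of the repeats. They hold nucleosomes with the histone variant CENP-A, on which the kinetochore is built. Over 98 probes the median was 0.54 in clr4Δ and -0.03 in swi6Δ, against 0.40 and 0.71 in wild type. The clr4Δ array thus lay between the wild-type arrays and the swi6Δ array below both. Of 94 probes measured on all 4 arrays, 87 were below both wild-type values in swi6Δ and 39 in clr4Δ. The median difference was 0.42, and clr4Δ was higher in 91 probes and lower in 5. The wild-type gap was -0.25. With limma's normexp background correction in place of the scanner's the difference turned to -1.11.

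The difference was 0.43 at centromere 1, 0.29 at centromere 2 and 0.53 at centromere 3, with wild-type gaps of -0.36, -0.27 and -0.15. These probes are dim. The extract signal of wild-type replicate 2 lay at -3.82 relative to its array's median, and the wild-type arrays differed by 0.50 in that channel. The extract channel of the mutants differed by 0.00. With only spots well above background on both mutant arrays the difference was 0.39.

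The silent mating-type region had far less Pds5-GFP in both mutants than in wild type, and the mutants differed from each other along an inner stretch. The region holds the silent copies of the mating-type genes between boundaries, and within it a sequence related to the centromeric repeats, cenH, at which RNA interference starts heterochromatin. The region was taken as the tiles of the mating-type contig where wild-type H3K9me2 stayed at 5 or more in a running median of 5 probes, tiles 19800 to 39300. That limit was 2 at first and was raised to 5 after the profiles, those of Pds5-GFP among them, had been seen. Over these 52 probes the median was 0.37 in clr4Δ and 0.30 in swi6Δ, against 3.65 and 3.56 in wild type. The median probe-by-probe difference of -0.20, beside a wild-type gap of 0.06, and the difference of those medians have opposite signs, since the difference was not the same along the region. At the first limit, tiles 17100 to 41100 with 64 probes, the median was 0.35 in clr4Δ and 0.28 in swi6Δ, against 3.52 and 3.46 in wild type, and the probe-by-probe difference was -0.11, beside a gap of 0.05.

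The inner stretch was the run in which swi6Δ stayed at 0.75 or more in a running median of 3 probes, tiles 27900 to 33000, a limit set after the profile was seen. Its values are therefore a description of that choice. Over its 15 probes the median was 0.88 in clr4Δ and 1.48 in swi6Δ, against 4.09 and 4.18 in wild type. All 15 probes were higher in swi6Δ, with a median difference of -0.73, beside a wild-type gap of 0.00. The mutants peaked on neighbouring probes: clr4Δ was highest, at 1.20, on tile 30000, and swi6Δ was highest, at 2.07, on tile 29700. Values ran from 0.10 to 1.20 in clr4Δ and from 0.82 to 2.07 in swi6Δ. No name of a probe in this stretch ends in f or m. Its extract signal, less each array's median, was 1.74 in clr4Δ and 1.66 in swi6Δ, against 0.86 and 0.89 in wild type.

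In the 24 probes to the left of the stretch the median was 0.33 in clr4Δ and 0.25 in swi6Δ, against 3.51 and 3.46 in wild type. The difference of 0.05 was smaller than the wild-type gap of 0.08. In the 13 probes to its right the median was -0.07 in clr4Δ and 0.21 in swi6Δ, against 3.48 and 3.37 in wild type, with clr4Δ lower in 9 of 13. In clr4Δ single probes outside the stretch reached levels like those within it. At tile 38400 the ratio was 0.91 in clr4Δ and 0.52 in swi6Δ, against 3.57 and 3.45 in wild type. In swi6Δ the highest probe outside, at tile 20400, was 0.62, below the lowest within, 0.82. The limit that set the stretch was on swi6Δ. Whether the array's inner stretch is cenH could not be read from the annotation used here.

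**Figure D3:**
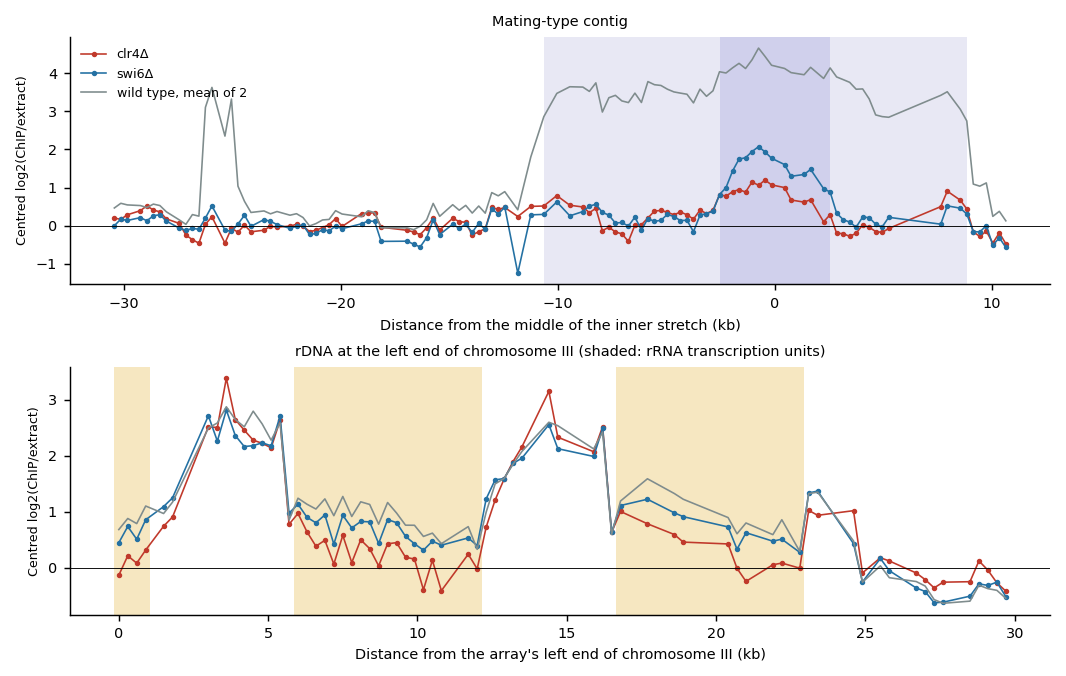
Centred log2(ChIP/extract) of each probe (y axis) in clr4Δ, swi6Δ and the mean of the wild-type arrays, along the mating-type contig (upper panel, x axis in kb from the middle of the inner stretch, lighter shading for the silent region and darker for the inner stretch) and along the rDNA at the left end of chromosome III (lower panel, x axis in kb from the end of the array, shading for the rRNA transcription units). In the upper panel both mutants peak in the inner stretch, to 1.20 in clr4Δ and 2.07 in swi6Δ. In the lower panel clr4Δ lies below swi6Δ in the shaded units, and the lines cross in the spacers.

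In the rDNA the mutants differed by more than the wild-type gap in the rRNA genes, and by less than it in the spacers. Chromosome III ends on both sides in tandem rRNA repeats, in which the 18S, 5.8S and 28S genes form a unit read by RNA polymerase I and a spacer separates unit from unit. Over all 71 rDNA probes the median was 0.58 in clr4Δ and 0.94 in swi6Δ, against 1.11 and 1.16 in wild type. The median difference of -0.34 became -0.21 after loess, -0.64 in the ChIP channel alone and 0.12 with normexp. The probes were then divided into units and spacers, a split added after the profile was seen.

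Over 41 probes in the units the median was 0.21 in clr4Δ and 0.72 in swi6Δ, against 0.93 and 0.97 in wild type. All 41 were lower in clr4Δ, with a median difference of -0.42, beside a wild-type gap of 0.01. The clr4Δ value was below both wild-type values in 41 of 41 probes and the swi6Δ value in 38 of 41. The left and the right end of the chromosome gave -0.42 over 33 probes and -0.54 over 8.

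Over 30 spacer probes the median was 2.10 in clr4Δ and 1.99 in swi6Δ, against 2.04 and 2.25 in wild type. The spacers held the highest ratios of the rDNA, and 15 probes were higher in each mutant. The difference of 0.01 was smaller than the wild-type gap of 0.09. Its sign followed the scaling, with -0.15 after the 4 arrays were put on an equal scale and 0.22 after loess, whereas the unit difference was -0.46 and -0.31. In the extract channel clr4Δ was dimmer than swi6Δ by 0.29 in the units and by 0.48 in the spacers, while the wild-type arrays differed by 0.21 and -0.43. The part of rDNA copy number in the ratio was not tested.

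In the last 50 kb of chromosomes I and II the mutants differed little beside their distance from wild type. The ends carry subtelomeric heterochromatin. Over 589 probes the median was 0.09 in clr4Δ and 0.12 in swi6Δ, against 1.88 and 1.96 in wild type. The difference of -0.04 stood beside a wild-type gap of -0.04, and turned to 0.31 with normexp. At single ends it was -0.06 at the left of I, beside a gap of -0.05, and -0.05 at the right of I, beside 0.00. It was -0.06 at the left of II, beside -0.03, and -0.02 at the right of II, beside -0.08. Over the 293 probes without f or m in their names it was -0.09, beside -0.03, with swi6Δ higher in 201.

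Probes of DNA clones named pNSU, which are cloned chromosome-end sequences in this yeast, did separate them. Over 129 probes of 9 clones the median was 0.42 in clr4Δ and 0.95 in swi6Δ, against 2.22 and 2.46 in wild type. The swi6Δ value was higher in 117 of 129 probes, with a median difference of -0.50, beside a wild-type gap of -0.21. In clone pNSU21 the median of 27 probes was 0.44 in clr4Δ and 0.98 in swi6Δ, against 2.29 and 2.51 in wild type. In clone pNSU71, with 29 probes, it was 0.11 in clr4Δ and 0.21 in swi6Δ, against 0.16 and 0.16 in wild type, and there all 4 arrays were near 0. In clone pNSU68, with 2 probes, clr4Δ was the higher, at 1.51 in clr4Δ and 1.40 in swi6Δ, against 1.57 and 1.71 in wild type. All 129 names end in f or m, and the extract channel of the wild-type arrays differed by -0.57 over them. That channel, less each array's median, lay at 2.04 in clr4Δ and 2.32 in swi6Δ, against 0.96 and 1.58 in wild type.

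The mitochondrial genome, which lies outside the nucleus where cohesin acts, differed widely between arrays. Its 61 probes had a median of -3.34 in clr4Δ and -2.55 in swi6Δ, against -0.96 and -2.71 in wild type. The wild-type arrays differed by 1.76, more than the -0.81 between the mutants.

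The arms hold 40305 of the probes, so centring each array on its median sets their median difference near 0, here 0.00 beside a wild-type gap of 0.01, and this says nothing of a change common to all arms. The SD of the probe-by-probe difference was 0.22 between the mutants and 0.18 between the wild-type arrays. Cohesin on the arms gathers where genes converge, and at tRNA genes.

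Over 182 probes at 148 tRNA genes of the arms the median was 0.51 in clr4Δ and 0.32 in swi6Δ, against 0.49 and 0.51 in wild type. The clr4Δ value was higher in 140 probes, by a median of 0.17, beside a wild-type gap of 0.03. Over the whole set the clr4Δ level was within the wild-type pair and the swi6Δ level below it. The set includes tRNA clusters beside centromeres. At the 48 of these probes in wild-type peaks, chosen by a wild-type ratio of 1 or more, both mutants were below wild type. The median there was 1.26 in clr4Δ and 1.07 in swi6Δ, against 2.03 and 1.98 in wild type. Of 179 probes measured on all 4 arrays, swi6Δ was below both wild-type values in 110 and clr4Δ in 70.

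In 551 probes of convergent space between genes the median was 0.34 in clr4Δ and 0.23 in swi6Δ, against 0.34 and 0.33 in wild type. In 3926 probes of divergent space it was -0.30 in clr4Δ and -0.24 in swi6Δ, against -0.24 and -0.28 in wild type. At 1899 probes in wild-type peaks, at a ratio of 1 or more on both wild-type arrays, it was 1.38 in clr4Δ and 1.28 in swi6Δ, against 1.32 and 1.37 in wild type. The peak difference was 0.09 and turned to -0.03 after the arrays were put on an equal scale, since the spread of ratios was wider on the clr4Δ array. On that scale the difference at tRNA genes was 0.14 and in convergent space 0.05.

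Genes with 3 or more probes were given the average of those probes, and a gene was counted when clr4Δ and swi6Δ differed by 0.5 or more. Of 4617 genes measured, 23 were higher in clr4Δ (0.498%) and 1 was lower (0.0217%). Between the wild-type arrays 1 gene passed with replicate 1 higher (0.0217%) and 0 with replicate 2 higher. The order of the replicates is arbitrary, so these directions do not pair with those of the mutants. All 24 lay on the arms, as do most of the 4617 genes, of which 43 were at the ends of I and II. Each differed by more than its wild-type gap, which follows largely from the limit, since few wild-type gaps reach 0.5. The clr4Δ value was above both wild-type values in 23 of the 23 higher genes and the swi6Δ value below both in 22, which describes these genes but follows in part from their choice by the difference between the mutants. With normexp 1474 genes passed, and 37 between the wild-type arrays. With the ChIP channel alone 213 passed, and 125 between the wild-type arrays. The median of the 23 higher genes, in the ratios reported, was 0.91 in clr4Δ and 0.27 in swi6Δ, against 0.57 and 0.62 in wild type. These levels too follow in part from the choice of the genes.

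The largest difference in these ratios was at isp3, which encodes a protein of the spore surface. Its 4 probes averaged 0.57 in clr4Δ and -0.56 in swi6Δ, against 0.47 and -0.01 in wild type, so that 0.48 of the 1.13 also lay between the wild-type arrays. The gene mct1, for mitochondrial fatty acid synthesis, averaged 1.43 in clr4Δ and 0.40 in swi6Δ over 6 probes, against 1.19 and 1.38 in wild type. Its difference of 1.02 became 0.30 with spots well above background only and 0.33 with the median over probes, so that it no longer passed. The proteasome gene pre6 averaged -0.62 in clr4Δ and -1.39 in swi6Δ, against -0.77 and -1.32 in wild type, and with a wild-type gap of 0.55 it was the gene that also passed between the wild-type arrays. The isp3 difference was 0.39 with spots well above background only, 0.34 with the median over probes and -0.29 with normexp. The pre6 difference was 0.07, 0.16 and -0.71 under the same settings.

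Genes with small wild-type gaps followed. The alcohol dehydrogenase gene adh4 averaged 0.80 in clr4Δ and 0.09 in swi6Δ, against 0.59 and 0.62 in wild type. For sec39, whose product tethers vesicles at the endoplasmic reticulum, the mean of 8 probes was 0.91 in clr4Δ and 0.20 in swi6Δ, against 0.33 and 0.36 in wild type. All probes of each of the 23 higher genes were above swi6Δ in clr4Δ, which follows in part from their choice by the mean of those probes. The share of all genes with every probe in 1 direction was not counted.

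Several of these genes were neighbours. On chromosome II, rep1, which encodes an activator of G1/S transcription, averaged 1.19 in clr4Δ and 0.53 in swi6Δ, against 1.04 and 0.93 in wild type. Close by, mmp1 averaged 1.23 in clr4Δ and 0.64 in swi6Δ, against 1.07 and 0.90 in wild type. The gene snr1 averaged 0.70 in clr4Δ and 0.09 in swi6Δ, against 0.43 and 0.50 in wild type. On chromosome I, shm2, for serine hydroxymethyltransferase, averaged 1.41 in clr4Δ and 0.77 in swi6Δ, against 0.99 and 1.09 in wild type. Further along the same arm, the tRNA methyltransferase gene trm9 averaged 0.27 in clr4Δ and -0.36 in swi6Δ, and rnh201, for a subunit of RNase H2, averaged 0.62 in clr4Δ and 0.01 in swi6Δ. The wild-type arrays had -0.08 and 0.06 at trm9 and 0.48 and 0.36 at rnh201. Neighbouring genes share fragments and peaks, so the count of genes is not a count of separate sites.

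The remaining genes among the 12 with the highest differences were pcf3, for a subunit of the chromatin assembly factor CAF-1, with 0.03 in clr4Δ and -0.62 in swi6Δ, and SPCPB1C11.02, with 1.02 in clr4Δ and 0.42 in swi6Δ. The wild-type arrays had -0.40 and -0.27 at pcf3 and 0.94 and 0.77 at SPCPB1C11.02. With normexp the pcf3 difference was -0.0001. Of the 13 genes named here for a difference past 0.5, ppc1 below included, 6 stayed past it under every alternative. Just inside the limit lay SPAC19G12.09, with a difference of 0.50, and just outside it SPCC569.03, with 0.49.

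The single lower gene, ppc1, for a ligase of coenzyme A synthesis, lay on the right flank of centromere 3 described above. Its 5 probes averaged 0.11 in clr4Δ and 0.64 in swi6Δ, against 0.49 and 0.60 in wild type. In the extract channel clr4Δ was 0.50 brighter than swi6Δ there, and in the ChIP channel alone the difference was -0.04.

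**Figure D4:**
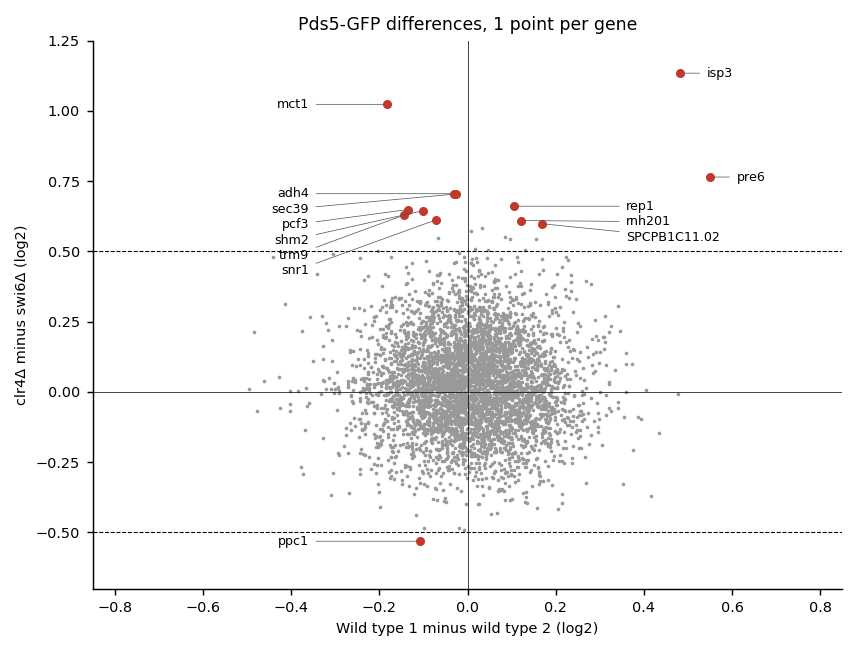
Difference clr4Δ minus swi6Δ (y axis, log2) against the wild-type gap, replicate 1 minus replicate 2 (x axis, log2), with 1 point for each of 4617 genes. Dashed lines mark 0.5 in each direction, and the 12 highest genes and the single lowest gene past it are named. The gene isp3 reaches 1.13 and pre6 0.76, both with a wild-type gap near 0.5, while mct1 reaches 1.02 with a gap of -0.18.

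On the arms, runs of 3 or more probes whose running median over 5 probes differed by 0.5 or more numbered 41 with clr4Δ higher and 16 with clr4Δ lower. These include 1 run over clr4, within the probes whose DNA is missing from clr4Δ, and 1 run that touches swi6. The swi6 run, tiles 1703100 to 1703700, lies beside the probes lost in swi6Δ, tiles 1704000 to 1704600. It averaged 0.43 in clr4Δ and -0.58 in swi6Δ, against 0.52 and 0.51 in wild type. The other 40 runs with clr4Δ higher and 15 with clr4Δ lower touch neither gene. Some of those lie in the centromere flanks described above, so the flank differences are counted here again. Runs with clr4Δ lower lie left of centromere 1 and right of centromere 3. Runs with clr4Δ higher lie on both flanks of centromere 2 and left of centromere 3. The share of arm probes past that limit was 0.546% with clr4Δ higher and 0.261% with clr4Δ lower. Between the wild-type arrays it was 0.0174% with replicate 1 higher and 0.104% with replicate 2 higher. The order of the replicates is arbitrary, so neither wild-type share belongs to a direction of the mutants. In 38 of the 41 higher runs swi6Δ was below both wild-type values, and in 36 clr4Δ was above both. In 15 of the 16 lower runs swi6Δ was above both, and in 14 clr4Δ was below both. The runs were chosen by the difference between the mutants, and these counts follow in part from that choice.

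The longest run, 14 probes over shm2 and gcn1, averaged 1.39 in clr4Δ and 0.74 in swi6Δ, against 1.10 and 1.11 in wild type. The next, 12 probes over trm9 and btb3, averaged 0.43 in clr4Δ and -0.20 in swi6Δ, against 0.10 and 0.14 in wild type. Of the lower runs the longest had 9 probes each. Over tra2, a component of chromatin-modifying complexes, the mean was -0.17 in clr4Δ and 0.46 in swi6Δ, against 0.07 and 0.08 in wild type. Over sib1, for siderophore synthesis, it was 0.30 in clr4Δ and 0.88 in swi6Δ, against 0.23 and 0.51 in wild type.

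**Figure D5:**
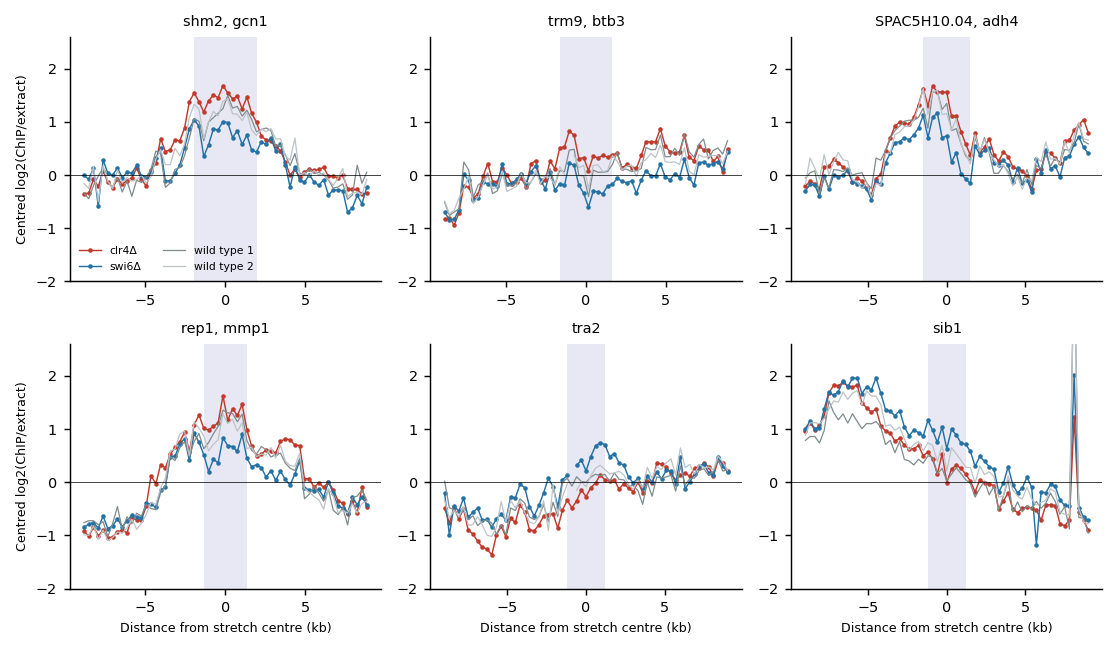
Centred log2(ChIP/extract) of each probe (y axis) against the distance from the centre of the run in kb (x axis), for the 4 longest runs with clr4Δ higher and the 2 longest with clr4Δ lower, titled by the genes they touch. Lines are clr4Δ, swi6Δ and the 2 wild-type arrays, and shading marks the run. At shm2 and gcn1 all arrays show a peak, which averages 1.39 in clr4Δ and 0.74 in swi6Δ within the shading.

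In lists of genes chosen by function, counts past 0.5 carry little, since over all genes 0.498% were higher and 0.0217% lower in clr4Δ, and a list of this size is then expected to hold few or none. Among 20 genes of heterochromatin factors, 0 passed in either direction, and their median difference was 0.09, beside a median wild-type gap of 0.00. The median over all genes measured was 0.02, beside 0.01. The extremes of the list were swi6 at 0.41 and the histone deacetylase gene clr3 at -0.13. Of the 5 swi6 probes, 3 lack their DNA in swi6Δ. With spots well above background only, the swi6 difference was 0.67. The 14 genes of cohesin and its regulators had a median difference of 0.07, beside a gap of 0.02, and 0 past the limit. The highest was rec8, the meiotic kleisin, at 0.29, and the lowest psm1, an SMC subunit of cohesin, at -0.07. The 13 kinetochore and CENP-A genes had a median of -0.03, beside a gap of 0.06, with cnp20, the CENP-T gene, highest at 0.48 and fta1, the CENP-L gene, lowest at -0.24. Their median levels, -0.01 in clr4Δ and -0.11 in swi6Δ, differ in the opposite direction to that median difference.

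The 11 meiotic genes whose transcripts the RNA-binding protein Mmi1 removes had a median of 0.05, beside a gap of 0.01, from num1 at -0.18 to mug10 at 0.35. The 8 strain marker genes had a median of 0.09, beside a gap of 0.03, from his3 at -0.22 to his7 at 0.29, although their median level was 0.06 in clr4Δ and 0.19 in swi6Δ. The 15 strongly transcribed metabolic genes had a median of 0.03, beside a gap of -0.10, from adh1 at -0.13 to pdc101 at 0.41. Of the heat-shock genes 7 were measured, with a median of 0.03, beside a gap of -0.10, from hsp16 at -0.09 to hsp90 at 0.15. Of the ribosomal protein genes 56 were long enough to be measured, with a median of 0.09, beside a gap of -0.03, from rpl1502 at -0.28 to rpl1602 at 0.39. In these 5 lists 0 members were past 0.5, against the shares over all genes given above.

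The difference at Tf2 retrotransposons depended on the scaling. Over 9 elements measured, the median was 0.90 in clr4Δ and 0.90 in swi6Δ, against 0.77 and 0.82 in wild type, and their differences ran from -0.05 at Tf2-9 to 0.04 at Tf2-4. With loess Tf2-9 was at 0.20 and Tf2-4 at 0.20, on an equal scale at -0.15 and -0.05, and in the ChIP channel alone at -0.55 and -0.35. All probes of those 2 elements have names ending in f or m. Of 44 genes within 20 kb of a centromere, ppc1 was the only member past 0.5, the highest was the meiotic recombination gene rec6 at 0.48, and the median was -0.03, beside a gap of -0.07. The 43 measured genes in the last 50 kb of chromosomes I and II had a median of 0.21 in clr4Δ and 0.15 in swi6Δ, against 1.88 and 1.99 in wild type. Their differences ran from -0.33 at pan5 to 0.20 at SPAC186.02C, with 0 past 0.5, and the median gap was -0.05.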

How the data were processed

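Two-colour Agilent arrays were compared, with Cy5 for ChIP DNA and Cy3 for whole-cell extract DNA per the labels' protocols and in the same orientation on every array. Scans were read by Agilent Feature Extraction 12.0.3.1, per the file headers, and the processed signals are intensity values already background-subtracted and dye-normalised. The median spot and background signals are uncorrected intensity values per the file headers, per the file headers LogRatio is log10 of red over green, and outlier, control and background columns are flags. The deposited value table holds log2 ratios. Of its 41251 positions, 41250 in clr4Δ, 41249 in swi6Δ and 41250 on each wild-type array lay within 0.01 of the scanner's ratio, so direction and scale are settled. The columns were left uncentred, with medians of -0.0544 in clr4Δ, -0.072 in swi6Δ and -0.087 and -0.0914 in wild type. Replicates were not pooled in any file.

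Of 41551 spots that are not controls, outlier-flagged spots (2 in clr4Δ, 82 in swi6Δ, 72 and 99 in wild type) were left out. A value is log2 of processed Cy5 over processed Cy3, less the median of that array, without loess or quantile normalization. A region's difference is the median over probes of clr4Δ minus swi6Δ.

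No label or header names the genome build behind the array's tiles. Gene annotation (assembly ASM294v3) was laid on 8 blocks of tiles by the shift at which reference base composition in a window of 250 bp to each side best followed the extract signal, with r from 0.376 to 0.537. Positions printed are the array's own tiles. Analysis used Python 3.11.15 with pandas 2.3.3 and, for alternatives, limma 3.58.1 in R 4.3.3. No test was made, since each deletion has 1 array.

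Regions, lists and members were chosen with earlier results of these data known. List members were written down after the files could be read, and the H3K9me2 limit of the mating-type region was raised to 5 from 2 after the profiles were seen. Genes named are the 12 highest and up to 12 lowest past 0.5 that exceed their wild-type gap, the deleted and tagged genes, and the extremes of each list. The genes mmp1, gcn1, btb3, tra2, sib1, SPAC19G12.09 and SPCC569.03 were named after their values were seen. Alternatives changed the background correction, normalization, scale, channel, probe filter and summary.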

Additional observations from a re-analysis of the deposited data

How the results depend on the processing

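With limma's normexp correction, whose ratios correlated with those reported at 0.94 on the clr4Δ array, 0.65 on the swi6Δ array and 0.92 and 0.96 on the wild-type arrays, the differences were -0.55 over repeats, -1.11 over central domains, 0.12 over rDNA, 0.19 over the mating-type region, 0.31 over the ends of I and II and 0.28 over the arms. It turned the sign of the central domains, rDNA, mating-type region and ends, and gave 1474 genes past 0.5, 1208 higher and 266 lower in clr4Δ, beside 37 between the wild-type arrays. Under it isp3 was at -0.29, pcf3 at -0.0001 and pre6 at -0.71. The cause was not tested. With loess the repeats were at -0.66, rDNA at -0.21 and the arms at 0.0039. On an equal scale the repeats were at -0.92, rDNA at -0.41, the arms at -0.0015 and 3 genes were lower. With the ChIP channel alone, rDNA was at -0.64, the mating-type region at -0.27, the ends at -0.12 and the arms at -0.0077. In that channel 213 genes passed, 110 higher and 103 lower in clr4Δ. Between the wild-type arrays 24 passed with replicate 1 higher and 101 with replicate 2 higher. Without suffix-named probes the repeats were at -0.54, the mating-type region at -0.27 and the arms at 0.0003, and no rDNA probe was left. From the deposited table the arms were at 0.0014, and it holds no mating-type contig. Taking the difference of medians gave -0.71 for repeats, 0.0689 for the mating-type region and 0.0007 for the arms, and with medians over probes 4 genes were lower. With spots well above background the arms were at 0.0025. With a size of 1 in place of 0.5, 2 genes passed, both higher, and 0 were lower. With at least 5 probes 15 genes were higher. Chosen after seeing the data, rRNA units alone gave -0.42, spacers 0.0129, the inner stretch -0.73, the mating-type region without it 0.0147 and that region at the H3K9me2 limit of 2 -0.11. The difference at wild-type peaks was 0.08 to 0.09 with peaks taken from either wild-type array alone. Under all alternatives but normexp the whole set of repeat, rDNA and central domain probes kept the sign of its difference, and the repeats kept it under normexp too. Of 284 values of the 36 named genes, 107 moved by more than the spread of the wild-type pair, and 3 more, under normexp, changed the sign of a difference past 0.5. Of 13 named genes past 0.5, 7 (isp3, mct1, pre6, pcf3, rnh201, shm2 and ppc1) did not pass under at least 1 alternative, with rnh201 at 0.49 with loess and shm2 at 0.47 with the ChIP channel alone. The planned comparison within slides was not run, since no other array of this series shares the clr4Δ slide. No paired analysis was possible because each deletion has a single array.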
